A study of Mus musculus with 8 samples.

Results

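The genes of TGF-beta, BMP and activin signalling were followed in mouse aortic smooth muscle cells (MASMCs) with and without *Hint1*. With earlier results of these data known, the 49 genes were chosen by symbol from knowledge of the pathway. They are ligands, receptors, SMADs, latent binding proteins, antagonists and target genes. They were 49 of the 18533 gene symbols in the count files, and 45 of them passed the filter on low counts and were tested. *Tgfbi* was the only member past both thresholds, an adjusted p under 0.05 and a fold change over 1.5, and fell by 1.10 on the log2 scale in *Hint1*-/- cells. *Inhbb* and *Ltbp4* also fell, and 12 members rose by 0.13 to 0.48 on the log2 scale, among them both coreceptors (*Tgfbr3* and *Eng*), *Bmp4*, the activin receptor *Acvr1b*, the activin-binding proteins *Fst* and *Fstl3*, *Smad1*, *Id2* and *Id3*. The calls of *Ltbp4*, *Smad1*, *Id3* and *Bmpr2* were lost in 5, 2, 8 and 10 of 16 alternative fits, DESeq2 among them for each.

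RNA-Seq counts came from 4 WT and 4 *Hint1*-/- samples of MASMCs, primary cells taken from the aortas of male mice aged 4 to 6 weeks. The methods name no Cre for the *Hint1*-/- line, unlike the study's smooth muscle knockout, and do not say how its allele was made. All 8 samples had received PDGF-BB, a growth factor that drives smooth muscle cells towards the synthetic state, at 20 ng/mL for 24 hours, so no comparison with untreated cells was made. The comparison addressed which transcripts differ when HINT1 is missing from stimulated smooth muscle cells.

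TGF-beta, BMP and activin ligands are secreted dimers that bring type II and type I receptor kinases together. TGF-beta and activin receptors phosphorylate SMAD2 and SMAD3, BMP receptors phosphorylate SMAD1, SMAD5 and SMAD9, and both groups enter the nucleus with SMAD4. In the aortic wall this signalling drives contractile gene and matrix expression in smooth muscle cells, and inherited defects in TGF-beta ligands, receptors or SMADs cause aortic aneurysm syndromes.

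Promoters bear on whether members that moved hold the sequence motifs of the pathway's own SMADs or of AP-2, the transcription factor family that the study examined with HINT1. RefSeq entries (assembly GRCm38.p6) were found for 34 of the 49 members, with 42 start sites in all. The 250 bases before each start were searched on both strands, and overlapping matches were counted, for the AP-2 motif GCCNNNGGC, the BMP SMAD motif GGCGCC and the SMAD3 and SMAD4 motif CAGAC. The AP-2 motif was in 7 of the 34 members (20.6%) and in 23.5% of the 10767 tested genes with an entry. GGCGCC was in 11 members (32.4%) against 19.1% of those genes, and CAGAC in 17 (50%) against 45.8%. Of the 9 members with an entry that rose, 3 held the AP-2 motif, 2 held GGCGCC (22.2%) and 4 held CAGAC, and of the 3 that fell, 1, 2 and 1 did. Of the 21 tested members that did not pass, 3 held the AP-2 motif (14.3%), 7 held GGCGCC (33.3%) and 11 held CAGAC (52.4%). The 4 passed members with the largest fold changes that have an entry are shown, as the stretch of each window that lies outside annotated exons. *Tgfbi* is on the plus strand at chr13:56609336-56609522, *Inhbb* on the minus strand at chr1:119422249-119422498 and *Bmp4* on the minus strand at chr14:46390670-46390919, all 3 before the first annotated exon in GENCODE M21. The *Id2* stretch, on the minus strand at chr12:25096254-25096342, lies inside the annotated gene, between exons. Sequences run 5′ to 3′, and capitals mark GGCGCC and CAGAC or its reverse complement GTCTG.
Tgfbi: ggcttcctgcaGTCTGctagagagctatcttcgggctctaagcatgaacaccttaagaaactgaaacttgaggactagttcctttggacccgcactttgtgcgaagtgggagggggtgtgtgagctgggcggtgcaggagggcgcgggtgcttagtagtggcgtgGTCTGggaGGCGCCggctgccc
Inhbb: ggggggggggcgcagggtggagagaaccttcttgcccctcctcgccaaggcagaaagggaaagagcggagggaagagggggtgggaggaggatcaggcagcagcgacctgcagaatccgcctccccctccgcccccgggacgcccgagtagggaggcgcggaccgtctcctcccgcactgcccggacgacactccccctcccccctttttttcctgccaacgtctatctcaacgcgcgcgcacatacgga
Id2: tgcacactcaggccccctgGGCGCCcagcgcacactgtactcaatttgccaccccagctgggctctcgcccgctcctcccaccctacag
Bmp4: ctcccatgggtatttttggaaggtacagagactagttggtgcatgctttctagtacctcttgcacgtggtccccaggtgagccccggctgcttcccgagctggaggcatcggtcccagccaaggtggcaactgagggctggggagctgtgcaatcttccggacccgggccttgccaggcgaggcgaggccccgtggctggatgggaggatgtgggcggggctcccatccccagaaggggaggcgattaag
In *Tgfbi*, matches to GTCTG began 239 and 85 bases before the start and a match to GGCGCC began 77 bases before it. *Id2* had a single GGCGCC, 231 bases before the start. *Inhbb* and *Bmp4* had none of the 3 motifs in these windows, and none of the 4 held GCCNNNGGC. Such matches are letters in a window and were not tested as binding sites.

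Each sample held 20778077 to 20888041 estimated counts, so depth differed little between samples. *Hint1* itself had 2272 to 2364 counts in WT and 713 to 778 in *Hint1*-/- samples, which fits the labels although transcripts remained. Counts were scaled to library size as CPM with edgeR's TMM factors (0.993 to 1.01), and levels of different genes were compared as CPM per kilobase of annotated exon. A gene is said to have risen, fallen or passed where its p, from the two-sided quasi-likelihood test of edgeR and adjusted by Benjamini-Hochberg over 13535 genes, was under 0.05. All log2 fold changes are *Hint1*-/- over WT, and the value after ± is the SE for a fold change and the SD of 4 samples for a CPM. The labels do not say whether samples of 1 genotype came from separate mice or cultures, so p-values measure only the spread between these samples.

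Of the 45 tested members, 15 (33.3%) passed, beside 2907 (21.5%) of all 13535 genes tested. Because members were chosen with earlier results of these data known, their shares beside those of all genes are a description. The 12 that rose were 26.7% of the members, beside 1522 (11.2%) of all genes, and the 3 that fell were 6.67%, beside 1385 (10.2%). With the fold limit of 1.5 added, 1 member (2.22%) passed, beside 383 genes (2.83%), so its share was near the background. The CPM of the genotypes did not overlap for 17 members (37.8%), 12 of them among those that passed, and for 3110 of all genes (23.0%). At an unadjusted p under 0.05, 23 members (51.1%) passed, beside 4445 of all genes (32.8%). The median log2 fold change was 0.06 over the 45 members and 0.00031 over all genes, and the median absolute value was 0.117 against 0.0882. DESeq2 passed 11 of the 15, all but *Ltbp4*, *Bmpr2*, *Smad1* and *Id3*, and limma-voom passed 15. Counts of members by role below stand beside the same shares of all genes: 21.5% passed, 11.2% rose and 10.2% fell.

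**Figure D1:**
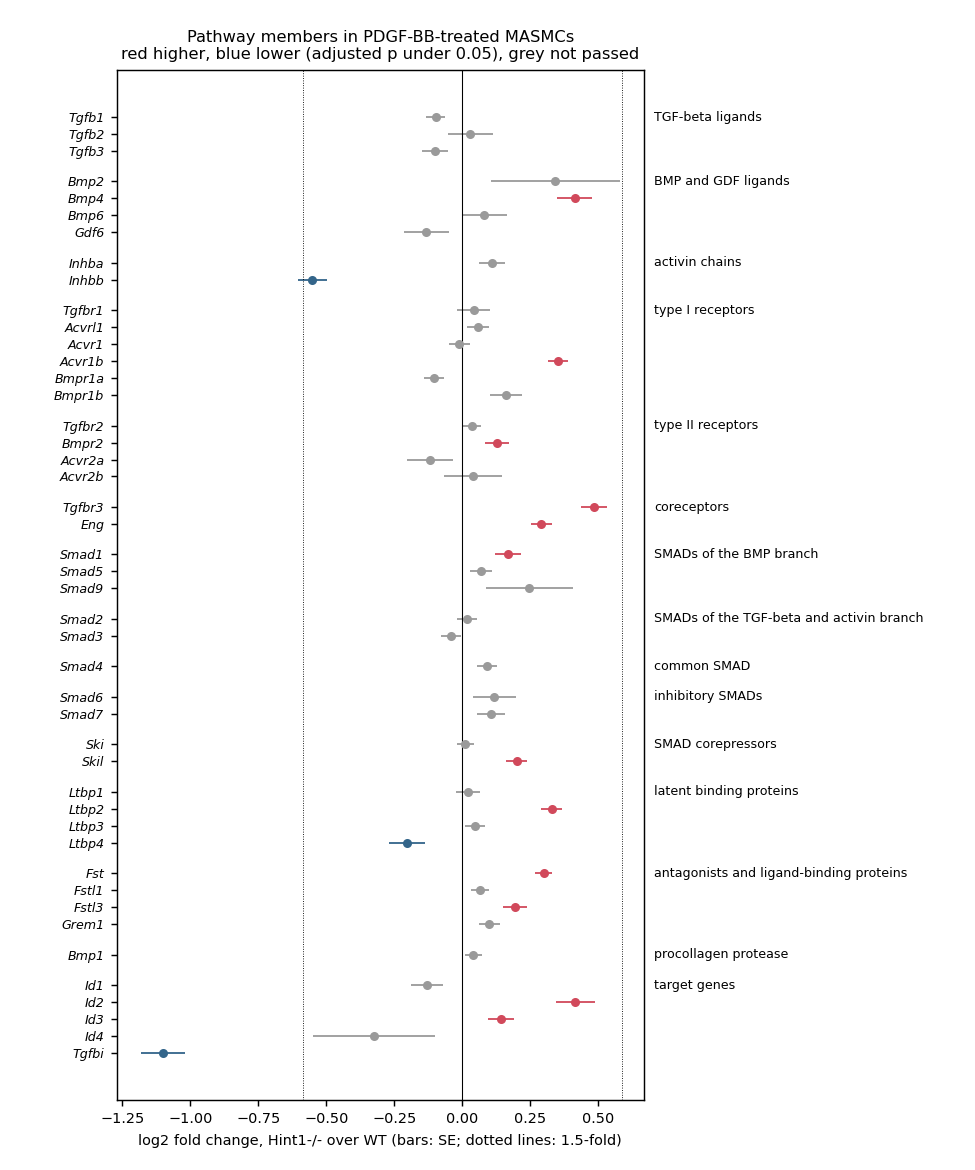
Log2 fold change of the 45 tested members, *Hint1*-/- over WT, with SE bars, grouped by role. Red points rose and blue points fell at an adjusted p under 0.05, grey points did not pass, and dotted lines mark a fold of 1.5. *Tgfbi* alone lies beyond a dotted line, at -1.10, with *Inhbb* at -0.55 just inside.

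Among the TGF-beta ligands, none of the 3 passed. *Tgfb1*, the main TGF-beta of the vessel wall, had 4238, 3987, 4265 and 4311 counts in WT and 3850, 3893, 4082 and 3745 in *Hint1*-/- samples. The genotypes overlapped, and the log2 fold change was -0.10 (adjusted p = 0.0589). By CPM per kilobase *Tgfb1* was the most abundant of the 3, at 39.9 in WT and 37.2 in *Hint1*-/- cells. *Tgfb3* had a log2 fold change of -0.10 (adjusted p = 0.142) and *Tgfb2* of 0.03 (adjusted p = 0.854).

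BMP ligands were led by *Bmp4*, a bone morphogenetic protein made by many mesenchymal cells. *Bmp4* had 425, 376, 383 and 379 counts in WT samples and 510, 481, 498 and 575 in *Hint1*-/- samples. The genotypes did not overlap, and *Bmp4* rose by a log2 fold change of 0.41 ± 0.064 (adjusted p = 1.00e-04), from 18.7 ± 1.14 to 24.9 ± 1.96 CPM (n = 4 and 4). It lies at chr14:46383520-46390669 in mm10. *Bmp2* was near the limit of detection, with 12 to 15 counts in WT and 15 to 19 in *Hint1*-/- samples, and did not pass (log2 fold change 0.34, adjusted p = 0.375). The ligands *Bmp6* (0.08) and *Gdf6* (-0.13) did not pass either. *Bmp5* and *Bmp7* were not tested, with 10 counts each summed over WT and 6 and 14 over *Hint1*-/- samples.

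Of the 2 activin chains, 1 fell. *Inhbb*, the beta B chain of activin B and inhibin B, had 603, 566, 571 and 596 counts in WT and 398, 372, 400 and 412 in *Hint1*-/- samples. The lowest WT sample was well above the highest *Hint1*-/- sample. *Inhbb* fell from 27.9 ± 0.947 to 19.1 ± 0.782 CPM, a log2 fold change of -0.55 ± 0.052 (adjusted p = 3.2e-07) that is 1.47-fold lower and so just within the fold limit. It lies at chr1:119415465-119422248. *Inhba*, the beta A chain of activin A, had 6033, 5885, 5164 and 5091 counts in WT and 5816, 5912, 6115 and 5880 in *Hint1*-/- samples. These overlapped, and *Inhba* did not pass (log2 fold change 0.11, adjusted p = 0.112). *Inhba* was the more abundant chain, at 41.5 CPM per kilobase against 6.57 for *Inhbb* in WT cells and 44.7 against 4.48 in *Hint1*-/- cells. Within each library, the ratio of *Inhba* to *Inhbb* CPM was 8.54 to 10.4 in WT and 14.3 to 15.9 in *Hint1*-/- samples. This and the other ratios within libraries were chosen after the values were seen and are a description.

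Of the 6 type I receptors, the kinases that phosphorylate SMADs, *Acvr1b* alone passed. *Acvr1b*, which encodes the activin receptor ALK4, had 1130, 1079, 1099 and 1111 counts in WT and 1410, 1360, 1366 and 1462 in *Hint1*-/- samples. All 4 *Hint1*-/- samples were above all WT samples, and the gene rose by a log2 fold change of 0.35 ± 0.037 (adjusted p = 1.1e-06). Its level went from 52.8 ± 1.17 to 67.5 ± 2.25 CPM, and it lies at chr15:101174067-101213684. *Tgfbr1*, the TGF-beta type I receptor ALK5, did not pass, and the 95% interval of its log2 fold change ran from -0.08 to 0.17. The ratio of *Acvr1b* to *Tgfbr1* CPM was 2.46 to 2.80 in WT and 3.12 to 3.57 in *Hint1*-/- samples. *Acvrl1*, the receptor ALK1, was the most abundant type I receptor at 58.2 CPM per kilobase in WT and 60.6 in *Hint1*-/- cells, with a log2 fold change of 0.06 (adjusted p = 0.329). The BMP receptors *Bmpr1a* (-0.10, adjusted p = 0.0525) and *Bmpr1b* (0.16, adjusted p = 0.0618) missed the threshold narrowly on opposite sides of 0, and *Acvr1* was at -0.01.

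Of the 4 type II receptors, which activate the type I kinases, 1 passed. *Bmpr2*, the BMP type II receptor, had 1457, 1595, 1407 and 1386 counts in WT and 1561, 1557, 1549 and 1665 in *Hint1*-/- samples. Its genotypes overlapped because WT replicate 2 was high, and its rise of 0.13 ± 0.043 on the log2 scale only just passed (adjusted p = 0.0423). The call was lost when any sample other than WT replicate 2 was left out, with an adjusted p of up to 0.140. It was also lost with DESeq2 (adjusted p = 0.0738), upper-quartile scaling (adjusted p = 0.0597) and library sizes without the 20 most abundant genes (adjusted p = 0.0847). *Tgfbr2*, the TGF-beta type II receptor, did not pass, with a 95% interval from -0.035 to 0.11 on the log2 scale. *Acvr2a* (-0.12) and *Acvr2b* (0.04) did not pass.

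Both coreceptors, which present ligand to the signalling receptors, rose. *Tgfbr3* (betaglycan) binds TGF-beta2 and inhibin and had 1310, 1199, 1203 and 1124 counts in WT and 1636, 1701, 1572 and 1805 in *Hint1*-/- samples. The genotypes were well apart, and *Tgfbr3* had the largest rise among tested members, a log2 fold change of 0.48 ± 0.048 (adjusted p = 6.3e-07), from 57.8 ± 3.72 to 80.9 ± 4.84 CPM. It lies at chr5:107106570-107289629. *Eng* (endoglin), which acts with ALK1, had 8610, 8330, 8487 and 7543 counts in WT and 10263, 9750, 9809 and 10173 in *Hint1*-/- samples. Again no sample overlapped, and *Eng* rose by 0.29 ± 0.039 on the log2 scale (adjusted p = 2.3e-05), from 394 ± 22.9 to 482 ± 12.3 CPM at chr2:32646595-32682669. *Eng* is known best from endothelial cells, whose 10 markers summed to 8.15 to 10.9 CPM in WT and 8.48 to 10.5 in *Hint1*-/- samples. The part of endothelial cells in the *Eng* result was not tested. Relative to their partner receptors in the same library, *Tgfbr3* stood at 0.325 to 0.370 of *Tgfbr2* in WT and 0.458 to 0.498 in *Hint1*-/- samples, and *Eng* at 1.55 to 1.61 times *Acvrl1* in WT and 1.79 to 1.93 times in *Hint1*-/- samples.

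**Figure D2:**
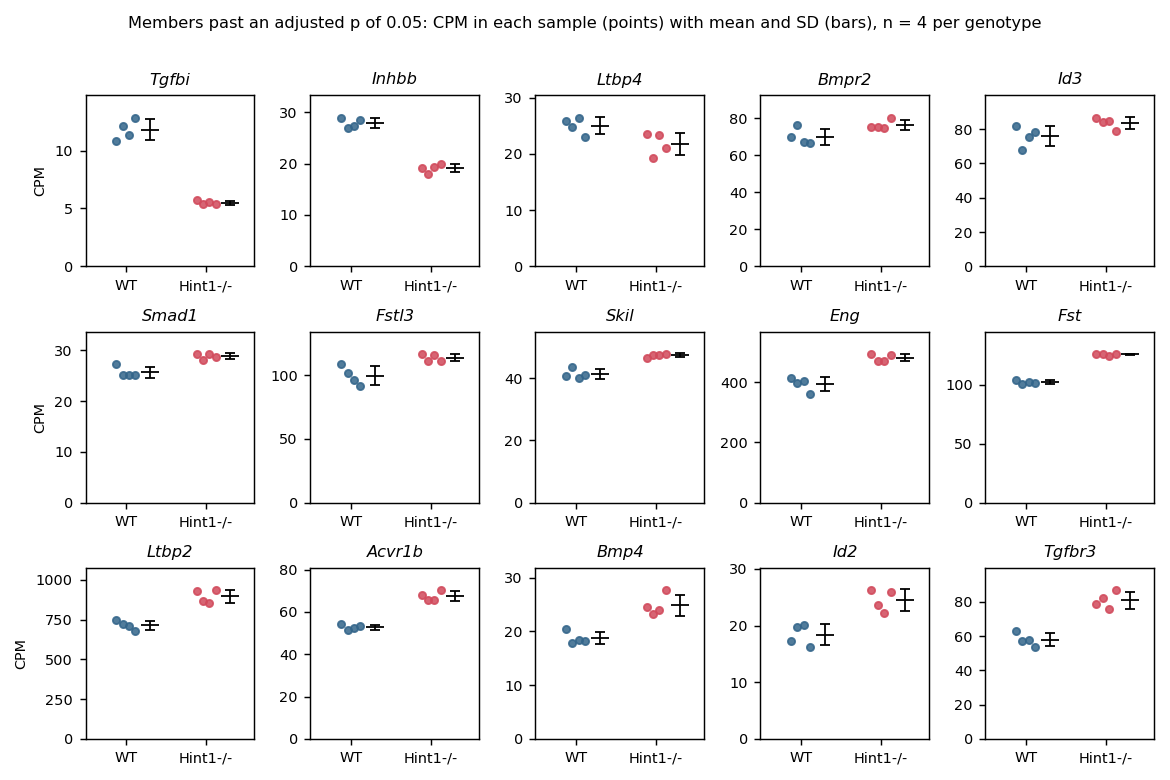
CPM of the 15 members that passed an adjusted p of 0.05, with 1 point per sample, 4 samples per genotype, and the mean and SD beside them. The vertical axes start at 0 and are scaled for each gene. *Tgfbi* and *Inhbb* show wide gaps between WT and *Hint1*-/- samples, whereas the points of *Ltbp4*, *Bmpr2* and *Id3* overlap.

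Among the SMADs, the intracellular messengers of the pathway, 1 of 8 passed, beside 21.5% of all genes tested. *Smad1*, a BMP messenger, had 570, 526, 526 and 527 counts in WT and 608, 581, 610 and 597 in *Hint1*-/- samples. The genotypes did not overlap, and *Smad1* rose by 0.17 ± 0.048 on the log2 scale (adjusted p = 0.0165), although the call was lost without WT replicate 3 (adjusted p = 0.0555) and with DESeq2 (adjusted p = 0.0587). The related *Smad5* (0.07) and *Smad9* (0.25) did not pass, *Smad9* with only 32 to 40 counts in WT and 38 to 45 in *Hint1*-/- samples. *Smad2* and *Smad3*, the messengers of TGF-beta and activin, had 95% intervals of -0.063 to 0.094 and -0.12 to 0.032 on the log2 scale, so a change of 1.5-fold in either direction lay outside both. *Smad4*, shared by both branches, had a log2 fold change of 0.09 (adjusted p = 0.0785) with no overlap between genotypes. The inhibitory *Smad6* and *Smad7*, which the pathway itself induces, were at 0.12 (adjusted p = 0.326) and 0.11 (adjusted p = 0.163).

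The SMAD corepressors SKI and SnoN hold target genes inactive. *Skil*, which encodes SnoN, had 848, 912, 834 and 855 counts in WT and 965, 983, 989 and 992 in *Hint1*-/- samples. Every *Hint1*-/- sample was above every WT sample, and *Skil* rose by 0.20 ± 0.039 on the log2 scale (adjusted p = 0.00095). *Ski* had a log2 fold change of 0.01 (adjusted p = 0.859).

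Latent binding proteins tether TGF-beta to the matrix, except that LTBP2 is known not to bind it and serves in elastic microfibrils. *Ltbp2* had 15599, 15086, 14779 and 14199 counts in WT and 19230, 17941, 17754 and 19428 in *Hint1*-/- samples. It did not overlap between genotypes and rose by 0.33 ± 0.038 on the log2 scale (adjusted p = 3.9e-06), from 713 ± 28.2 to 896 ± 41.7 CPM. *Ltbp2* was the most abundant of the 4 at 87.2 CPM per kilobase in WT and 109 in *Hint1*-/- cells, and lies at chr12:84783212-84876532. *Ltbp4*, which holds latent TGF-beta1 and takes part in elastic fibre assembly, had 538, 521, 553 and 481 counts in WT and 487, 397, 484 and 437 in *Hint1*-/- samples. These overlapped, through the low WT replicate 4, and *Ltbp4* fell by a log2 fold change of -0.20 ± 0.066 (adjusted p = 0.0342). Its call was lost without WT replicate 1 or 3 or *Hint1*-/- replicate 2 or 4 (adjusted p = 0.0871 to 0.125) and with DESeq2 (adjusted p = 0.0552). *Ltbp1* (0.02) and *Ltbp3* (0.05) did not pass.

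Antagonists and ligand-binding proteins limit how much ligand reaches the receptors. *Fst* (follistatin), the high-affinity antagonist of activins, had 2171, 2108, 2147 and 2111 counts in WT and 2615, 2606, 2590 and 2612 in *Hint1*-/- samples. The samples of each genotype lay very close together, and *Fst* rose by 0.30 ± 0.031 on the log2 scale (adjusted p = 9.5e-07), from 102 ± 1.64 to 126 ± 0.729 CPM at chr13:114452290-114458951. *Fstl3*, a follistatin relative that also binds activin, had 2264, 2134, 2011 and 1911 counts in WT and 2420, 2301, 2411 and 2309 in *Hint1*-/- samples and rose by 0.19 ± 0.044 (adjusted p = 0.0037). *Fst* CPM was 3.54 to 3.76 times that of *Inhbb* in WT and 6.34 to 7.01 times in *Hint1*-/- samples, and 0.358 to 0.416 times that of *Inhba* in WT and 0.424 to 0.450 times in *Hint1*-/- samples. Neither ratio overlapped between the genotypes. *Fstl1*, a secreted follistatin-like glycoprotein, was the most abundant member of all, at 224 CPM per kilobase in WT and 234 in *Hint1*-/- cells, and did not pass (0.06, adjusted p = 0.181). *Grem1*, the BMP antagonist gremlin 1, had a log2 fold change of 0.10 (adjusted p = 0.0892). *Bmp1*, a procollagen protease that also cleaves BMP antagonists, was at 0.04.

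*Nog* and *Chrdl1*, antagonists of BMPs, were too low for the filter. *Chrdl1* had 7, 4, 2 and 4 counts in WT and 13, 8, 10 and 11 in *Hint1*-/- samples, so every *Hint1*-/- sample was above every WT sample. The summed counts of 17 and 42 gave a ratio of 2.47, with a 95% exact (Clopper-Pearson) interval of 1.38 to 4.62 that covers counting error only. Without the filter its log2 fold change was 1.29 (adjusted p = 0.0390 in edgeR and 0.0981 in DESeq2). *Nog* had 7 counts over WT and 8 over *Hint1*-/- samples, a difference not detectable at this depth.

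**Figure D3:**
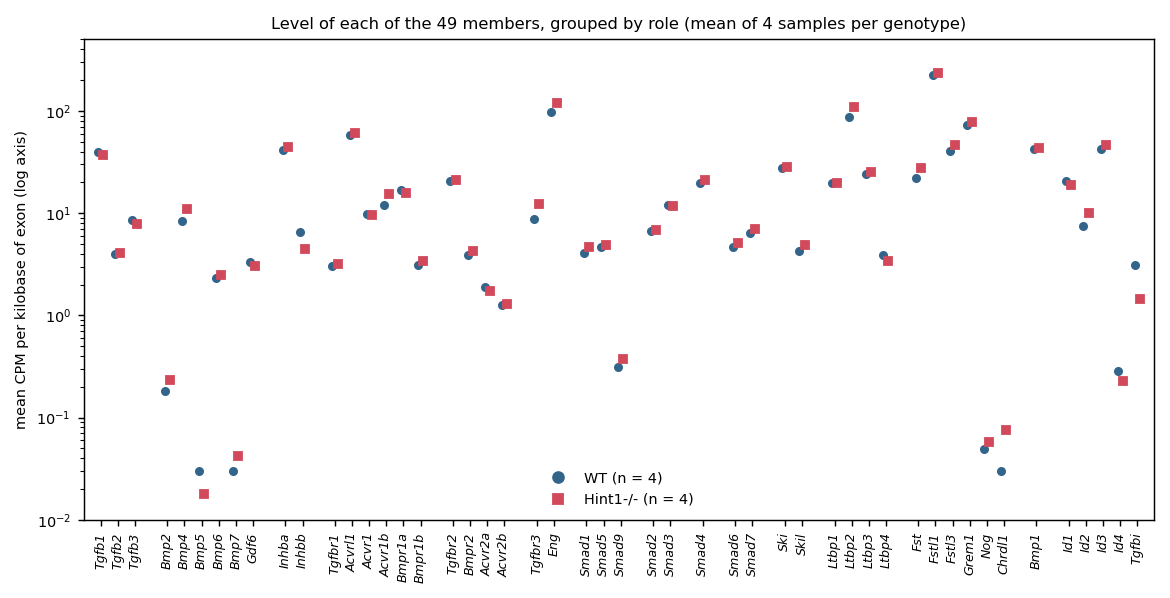
Mean CPM per kilobase of exon of all 49 members on a log axis, for WT (circles) and *Hint1*-/- (squares) samples, 4 each, ordered by role. *Fstl1* is highest at 224 and 234, *Eng*, *Ltbp2*, *Grem1* and *Acvrl1* follow, and *Bmp5*, *Bmp7*, *Nog* and *Chrdl1* lie at the bottom.

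Target genes of the pathway moved in both directions. *Tgfbi* encodes a secreted matrix protein induced by TGF-beta that binds collagen and integrins, and had 225, 255, 238 and 268 counts in WT and 118, 111, 116 and 111 in *Hint1*-/- samples. The lowest WT sample was far above the highest *Hint1*-/- sample, and the 4 *Hint1*-/- samples lay close together. *Tgfbi* fell from 11.8 ± 0.894 to 5.49 ± 0.168 CPM, a log2 fold change of -1.10 ± 0.081 (adjusted p = 1.1e-08) with a 95% interval of -1.27 to -0.93, which is 2.14-fold lower. It was past both thresholds in all 16 alternatives fitted for single members and lies at chr13:56609523-56639562.

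ID proteins, which block basic helix-loop-helix factors, are the classical BMP targets. *Id2* had 361, 416, 420 and 340 counts in WT and 545, 489, 461 and 539 in *Hint1*-/- samples. These did not overlap, and *Id2* rose by 0.42 ± 0.072 on the log2 scale (adjusted p = 0.000352) from 18.4 ± 1.87 to 24.5 ± 1.96 CPM at chr12:25093799-25097140. *Id3* had 1707, 1423, 1577 and 1632 counts in WT and 1796, 1746, 1757 and 1636 in *Hint1*-/- samples. These overlapped, and its rise of 0.14 ± 0.048 on the log2 scale (adjusted p = 0.0450) was lost without WT replicate 2 or 3 or *Hint1*-/- replicate 1, 2 or 3 (adjusted p = 0.0918 to 0.129), with DESeq2 (adjusted p = 0.0608), with upper-quartile scaling (adjusted p = 0.0678) and with library sizes without the 20 most abundant genes (adjusted p = 0.0745). *Id1*, a direct BMP target in many cells, had a log2 fold change of -0.13 (adjusted p = 0.133), and *Id4* of -0.32 (adjusted p = 0.337) on 14 to 27 counts. Of the 4 Id genes, 2 thus passed, both higher, beside 11.2% of all genes that rose. *Id3* lost its call in 8 of 16 alternatives, and the log2 fold changes of *Id1* and *Id4* were negative. The ratio of *Id2* to *Id1* CPM went from 0.646 to 0.929 over WT samples and from 0.964 to 1.22 over *Hint1*-/- samples.

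Beyond the members, 5 lists of other pathway genes were counted in the same fit, in which 21.5% of all genes passed. These lists too were chosen with earlier results of these data known, so their shares are a description. None of the 8 tested other ligands passed (2 at an unadjusted p under 0.05, 0 with DESeq2 and 0 with limma-voom). The growth factors *Gdf10* and *Gdf11* had the smallest p-values among them, with log2 fold changes of 0.19 (adjusted p = 0.0614) and 0.10 (adjusted p = 0.131), and *Gdf10* passed without *Hint1*-/- replicate 1 (adjusted p = 0.0345) and with the replicate block (adjusted p = 0.0448). The median log2 fold change of the list was 0.05.

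Of 21 tested other extracellular regulators, 9 rose and 2 fell, with a median log2 fold change of 0.09. Together they were 52.4% of the list, beside 21.5% of all genes tested. *Itgb8*, the integrin chain that with alpha v releases latent TGF-beta, had 51, 53, 47 and 47 counts in WT and 77, 91, 69 and 97 in *Hint1*-/- samples and rose by 0.76 ± 0.14 on the log2 scale (adjusted p = 0.000539), past the fold limit. From this same RNA-Seq, the study had picked *Itgb8* among the integrin genes shared by its enriched pathways. The study's q-PCR then found no effect of *Hint1* deficiency on *Itgb8* with PDGF-BB. Other tested integrin chains of the list, named after their values were seen, differed in direction. *Itgb3* fell by a log2 fold change of -0.26 (adjusted p = 0.00094), *Itgav* (alpha v) rose by 0.17 (adjusted p = 0.0025) and *Itgb5* did not pass (0.06, adjusted p = 0.196). *Tll1*, a tolloid protease that cleaves BMP antagonists, had 1756 to 2001 counts in WT and 2484 to 2602 in *Hint1*-/- samples and rose by 0.45 (adjusted p = 8.4e-08). *Pcsk6*, a proprotein convertase that processes ligand precursors, rose by 0.29 (adjusted p = 5.3e-05). Named after their values were seen, the anchors of latent TGF-beta at the cell surface moved in opposite directions: *Lrrc32* (GARP) rose by 0.18 (adjusted p = 0.0019) and *Nrros*, which plays that part in macrophages and microglia, fell by a log2 fold change of -0.25 (adjusted p = 0.0017).

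Of 27 tested other receptors and intracellular regulators, none rose and 3 fell, with a median log2 fold change of 0.03. Those 3 were 11.1% of the list, near the 10.2% of all genes that fell, while 11.2% of all genes rose. *Tgif1*, a SMAD corepressor, had a log2 fold change of -0.14 (adjusted p = 0.0113). *Pmepa1*, an inhibitor of TGF-beta signalling that TGF-beta induces, was at -0.15 (adjusted p = 0.0177), a call lost without WT replicate 1 or *Hint1*-/- replicate 4 (adjusted p = 0.0756 and 0.0709). *Fkbp1a*, the FKBP12 protein that holds type I receptors inactive, was at -0.10 (adjusted p = 0.0369), a call lost in 6 of the 8 fits that left out a sample, all but those without WT replicate 2 or 4 (adjusted p = 0.0543 to 0.124).

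The other TGF-beta response genes split: of 23 tested, 8 rose and 7 fell, with a median log2 fold change of -0.05. Together they were 65.2% of the list, beside 21.5% of all genes tested. *Postn* (periostin), a matricellular protein, had 4890, 5058, 4976 and 4814 counts in WT and 2419, 2266, 2251 and 2314 in *Hint1*-/- samples and fell by a log2 fold change of -1.08 ± 0.034 (adjusted p = 3.6e-14). The smooth muscle actin *Actg2* (-1.20, adjusted p = 3.2e-09) and calponin *Cnn1* (-1.12, adjusted p = 5.0e-08) fell past the fold limit too. Those 3 were the only genes of the list past both thresholds. Among genes named after their values were seen, *Acta2* (smooth muscle alpha-actin) fell by a log2 fold change of -0.51 (adjusted p = 1.4e-08) and *Tpm1* (tropomyosin) of -0.35, while *Ccn2* (0.33, adjusted p = 1.9e-05), the collagen cross-linking enzyme *Lox* (0.29, adjusted p = 6.7e-06) and *Col3a1* (0.25) rose and *Col1a2* (-0.19) fell. *Actg2*, *Cnn1*, *Acta2* and *Tagln* (-0.11, adjusted p = 0.0696) are also smooth muscle markers. The study reported from q-PCR that *Hint1* deficiency raised *Acta2*, *Tagln* and *Cnn1* in mouse smooth muscle cells. Its Western blots of *Hint1*-/- cells with PDGF-BB also showed more smooth muscle alpha-actin and SM22 (from *Tagln*) protein. In these counts *Acta2* and *Cnn1* fell and *Tagln* did not pass, and the reason for the difference was not tested.

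Of 9 tested other BMP response genes, *Alpl* and *Msx1* rose and none fell, and *Dlx5* is set apart because it passed the filter only through the *Hint1*-/- samples. Over all genes tested, 11.2% rose and 10.2% fell. *Alpl*, an alkaline phosphatase of mineralizing cells, had 46, 33, 41 and 47 counts in WT and 86, 83, 79 and 72 in *Hint1*-/- samples and rose by 0.95 ± 0.14 on the log2 scale (adjusted p = 7.9e-05). *Dlx5*, a homeobox factor of bone formation, had 5, 7, 3 and 1 counts in WT and 11, 19, 19 and 20 in *Hint1*-/- samples. A gene admitted by the genotype where it is high had to differ, so its fold change and p are not read as a result. No other gene of the 5 lists and none of the members passed the filter through 1 genotype alone. *Msx1*, named after its values were seen, rose by 0.49 (adjusted p = 0.0459), but missed the threshold in 12 of 16 alternatives. Those were 7 of 8 fits that left out a sample (adjusted p = 0.0581 to 0.129), DESeq2 (adjusted p = 0.188), the replicate block, no filter, upper-quartile scaling and library sizes without the 20 most abundant genes.

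**Figure D4:**
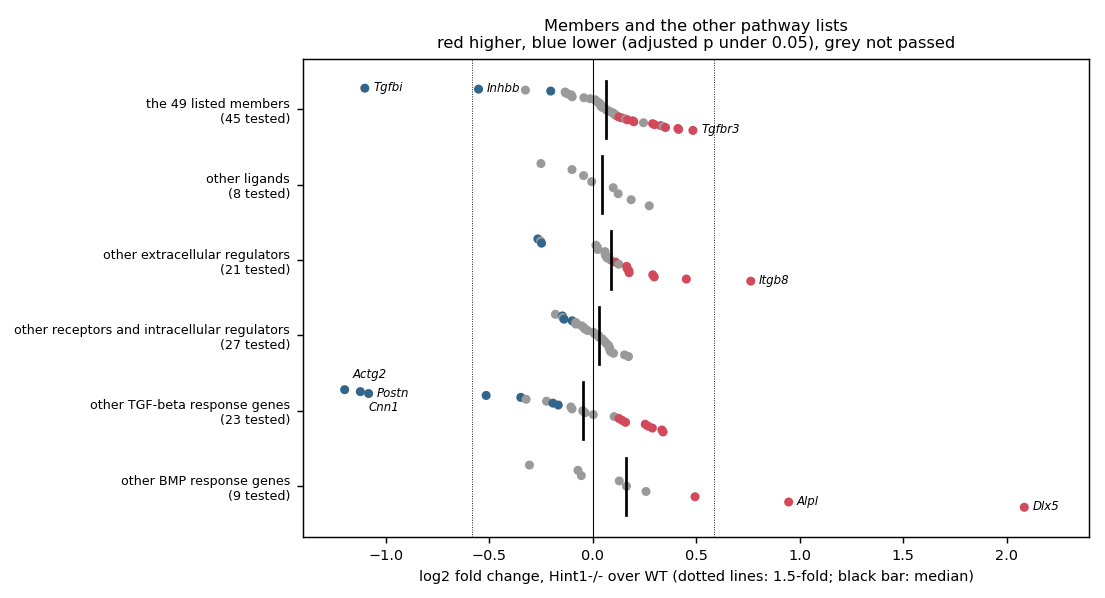
Log2 fold change, *Hint1*-/- over WT, of each tested gene of the 49 members and of the 5 other pathway lists, with the median as a black bar and a fold of 1.5 as dotted lines. Red points rose, blue points fell and grey points did not pass. The other TGF-beta response genes spread from -1.20 to 0.34 with 3 genes beyond the lower line, and *Dlx5*, far to the right, is the gene that passed the filter only through the *Hint1*-/- samples.

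Markers of cell types moved with genotype in the same samples. The counts of markers below stand beside 11.2% of all genes that rose and 10.2% that fell, on lists also chosen with earlier results known. The 10 smooth muscle markers summed to 2643 to 2819 CPM in WT and 2443 to 2535 in *Hint1*-/- samples, and 7 of 10 tested fell while 1 rose. The 10 macrophage markers summed to 2303 to 2659 and 1879 to 2002 CPM, and 7 of 9 fell while 1 rose, so transcripts of immune cells were present in both genotypes. The 10 fibroblast markers summed to 2450 to 2657 and 3471 to 3670 CPM, with 5 of 10 higher and 2 lower. Chondrocyte markers summed to 60.9 to 67 and 115 to 121 CPM (4 of 5 higher, 1 lower), and cardiac muscle markers to 1.91 to 2.67 and 6.98 to 11.6 CPM. Of the 5 tested cardiac markers, 3 passed the filter only through the *Hint1*-/- samples, so their calls are not counted. In the same way *Acan*, the chondrocyte marker that was lower, passed only through WT samples. None of the 7 tested endothelial markers passed (2 at an unadjusted p under 0.05, 0 with DESeq2 and 0 with limma-voom). No gene of these lists was at 0 in all 8 samples. In bulk samples, fewer cells of a type and less RNA per cell cannot be told apart. The summed macrophage markers were lower where *Tgfbi* and *Nrros*, which macrophages also express, were lower, and *Actg2*, *Cnn1* and *Acta2* are themselves on the smooth muscle list. The summed fibroblast markers were higher in *Hint1*-/- samples mainly through *Dcn* (22378 to 24375 counts in WT and 39759 to 42605 in *Hint1*-/- samples), while *Col15a1* and *Dpt* fell and 3 of the 10 did not pass. The part of cell composition in these results was not tested.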

How the data were processed

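RNA from 4 WT and 4 *Hint1*-/- MASMC samples was captured with oligo(dT) and sequenced as 50-base reads. The authors deposited estimated counts per gene symbol, with no normalization. The submitters' processing notes name Bowtie2, RSEM 1.3.1, DESeq2 1.4.5 and mm10, whereas the paper's methods name HISAT2, and the gene annotation is not given in the sources used here. Estimated counts divide reads that fit several transcripts or genes: 67.3% to 67.8% of values, which have 2 decimals, were exactly whole, and 4 of the 15 members that passed (*Bmp4*, *Eng*, *Fstl3* and *Id3*) had a value that was not.

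Counts were rounded to whole numbers and analysed in R 4.3.3 with edgeR 4.0.16: filterByExpr, TMM scaling and the quasi-likelihood test (glmQLFit, glmQLFTest), fitting genotype and no covariate. A prior count of 2 was used for log2 CPM. The thresholds are the study's, an adjusted p under 0.05 and a fold over 1.5. An SE is the fold change divided by the square root of F, and 95% intervals are not adjusted for multiple tests. Overlap of genotypes was read from CPM, and exact permutation over the 70 assignments can give a p of 0.0286 at the lowest. Lengths and positions came from GENCODE M21 by symbol. Scripts were tested on simulated data.

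Members and lists were chosen with earlier results of these data known. All 49 members are accounted for. Of each other pathway list, genes past both thresholds, or the 2 with the smallest p, are named, and any others were named after their values were seen. Of the listed genes, Mstn, Ctgf (listed as *Ccn2*) and Col9a1 were not analysed here, and 1 list of markers is not reported here.

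In edgeR, scaling was also done with the size factors of DESeq2, by the upper quartile and after removal of the 20 most abundant genes from the library sizes, and the filter was dropped or set to 10 counts in all samples. A block for the replicate number, fits that each left out 1 sample, DESeq2 1.42.0, limma-voom (limma 3.58.1) and glmTreat were further alternatives. The same alternatives were added, after the data were seen, for the genes named from the other lists.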

Additional observations from a re-analysis of the deposited data

Results flagged for a closer look

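In 90 groups of 4 samples, each tested member in each genotype, the most extreme sample was compared with the others by its gap to the nearest sample as a share of the group's range. In 4 groups this share was above Dixon's 95% critical value, beside 4.5 groups that chance gives at 1 in 20. For *Bmp4*, WT replicate 1 had 425 counts against 376 to 383 in the other WT samples (share 0.831). For *Smad1*, WT replicate 1 had 570 counts against 526 to 527 (share 0.916). For *Acvr2a*, WT replicate 3 had 197 counts against 232 to 238 (share 0.892). For *Bmpr2*, *Hint1*-/- replicate 4 had 1665 counts against 1549 to 1561 (share 0.853).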

How the results depend on the processing

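Of the 15 members that passed, 11 kept their call in all 16 alternatives, and *Bmpr2*, *Id3*, *Ltbp4* and *Smad1* lost it in at least 1. Of the 30 that did not pass, 7 passed in at least 1 alternative: *Tgfb1*, *Bmpr1a*, *Gdf6*, *Inhba*, *Smad4*, *Id1* and *Grem1*. The count of members that fell, 3, was 5 under upper-quartile scaling, 5 with library sizes without the 20 most abundant genes and 5 with at least 10 counts in every sample, where *Tgfb1* and *Bmpr1a* were added each time. Leaving out 1 sample gave 2 to 6 lower members, 6 without WT replicate 2, where *Gdf6*, *Tgfb1* and *Id1* were added, and 9 to 13 higher members. Past both thresholds there were 2 members with no filter, where *Chrdl1* joined *Tgfbi*, and 1 to 2 with a sample left out, *Chrdl1* again being added without WT replicate 1, 2 or 4 or *Hint1*-/- replicate 2, where it passed the filter through *Hint1*-/- samples, so that those calls are no support. Over all genes, glmTreat passed 108 against a fold of 1.5, beside 383, and leaving out a sample gave 350 to 390 past both thresholds and 2258 to 2909 at an adjusted p under 0.05. The share of higher genes among those that passed, 52.4%, was 42.5% with library sizes without the 20 most abundant genes, a setting that moved the median log2 fold change of all genes by -0.018.

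Members whose sign changed had no call in the main fit or in the alternative. *Smad2* was at -0.0022 and *Ski* at -0.0069 with library sizes without the 20 most abundant genes. With 1 sample left out, log2 fold changes ran from -0.016 to 0.10 for *Acvr2b*, -0.0034 to 0.032 for *Smad2*, -0.059 to 0.10 for *Tgfb2*, -0.0029 to 0.025 for *Ski*, -0.023 to 0.052 for *Ltbp1* and -0.030 to 0.011 for *Acvr1*. The cause was not tested. With the replicate number as a block, 3082 genes passed and 4 members fell, *Bmpr1a* being added (adjusted p = 0.0252), and no other member's call changed. Deviations of same-numbered samples correlated at -0.045 to 0.081, and 2 of 4 WT samples were closest to their own number. The labels do not say whether same numbers mark pairs, and these values cannot decide it.

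Depth limits the low members. The 4 tested members with a mean under 150 counts (*Bmp2*, *Acvr2b*, *Smad9* and *Id4*) had SEs of 0.107 to 0.237, against 0.0309 to 0.0839 for the others.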
